A study of Mus musculus with 17 samples.

Results

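The UTX-antibody peaks of mouse epidermis were compared between 2 deposited lists, one of control and one of Utx-deleted mice. All 760 of their peaks were used, out of 2948 peaks in the 4 lists of the series. The control list held 547 peaks and the Utx-deleted list 213. A peak was called common when it overlapped a peak of the other list by at least 1 bp, which gave 476 control only peaks, 71 common pairs and 142 Utx-deleted only peaks.

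Chromatin was immunoprecipitated and sequenced (ChIP-seq) from crosslinked single cells of the epidermis of female mice. Control mice were Cre-; Utx fl/fl, meaning that both copies of Kdm6a (Utx) were flanked by loxP sites and no recombinase was present. Utx-deleted mice were Cre+; Utx fl/fl, with Cre driven from keratin 14, the type I keratin of basal keratinocytes, so epidermal cells that never express keratin 14 were not targets of the deletion. Each list merged 3 libraries of its genotype, and the ages of the mice are not given in the sources used here. The antibody was the rabbit monoclonal D3Q1I. Because every list is 1 call on merged libraries, the values below are descriptions of these 2 lists, without replicate error or a test between genotypes. The number of reads behind either list is unknown, and peak numbers can move with it. Intervals in brackets are 95% Wilson intervals for shares and exact order-statistic intervals for medians, and both cover counting error only.

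UTX is a demethylase that removes methyl groups from lysine 27 of histone H3, and it is a subunit of the COMPASS-like complexes that carry the methyltransferases KMT2C and KMT2D at enhancers. It also has roles that do not need its enzyme activity. Its gene lies on the X chromosome and has a relative, Uty, on the Y chromosome, which female mice lack. KRAB zinc finger genes, which recur below, form large families of closely related copies that repress transposable elements, and in most of them the zinc finger array is encoded by the last exon.

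Sequence is shown first for some genes at clustered Utx-deleted only peaks, those that share most sequence with other genes. A further sequence is shown for the single peak that overlapped one of the start windows used here. The windows run from 250 bases before to 50 bases after a RefSeq gene start on GRCm38.p6. Peak sequences themselves are not shown, since no genome was used here. In the first group, capitals mark bases inside a stretch of 31 bases that also occurs, on either strand, in the window of another gene. 4930467E23Rik lies at chr8:19729326-19729625 on the plus strand, Rex2 at chr4:147021600-147021899 on the plus strand and Zfp600 at chr4:146156577-146156876 on the plus strand.
4930467E23Rik: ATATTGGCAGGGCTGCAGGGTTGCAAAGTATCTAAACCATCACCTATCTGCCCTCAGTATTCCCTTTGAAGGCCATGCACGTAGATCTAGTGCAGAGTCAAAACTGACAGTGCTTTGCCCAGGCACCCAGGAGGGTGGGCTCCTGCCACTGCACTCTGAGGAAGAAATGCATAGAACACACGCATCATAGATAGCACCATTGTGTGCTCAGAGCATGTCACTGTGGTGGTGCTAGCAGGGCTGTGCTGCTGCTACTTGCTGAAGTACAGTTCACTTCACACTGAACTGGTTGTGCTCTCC
Rex2: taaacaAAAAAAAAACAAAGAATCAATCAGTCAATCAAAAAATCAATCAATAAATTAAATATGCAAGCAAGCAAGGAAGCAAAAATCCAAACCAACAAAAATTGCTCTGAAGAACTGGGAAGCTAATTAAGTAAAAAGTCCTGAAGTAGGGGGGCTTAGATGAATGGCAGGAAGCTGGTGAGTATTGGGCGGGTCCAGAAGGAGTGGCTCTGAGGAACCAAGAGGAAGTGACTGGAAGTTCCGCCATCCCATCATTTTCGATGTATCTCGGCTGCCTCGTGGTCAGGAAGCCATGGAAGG
Zfp600: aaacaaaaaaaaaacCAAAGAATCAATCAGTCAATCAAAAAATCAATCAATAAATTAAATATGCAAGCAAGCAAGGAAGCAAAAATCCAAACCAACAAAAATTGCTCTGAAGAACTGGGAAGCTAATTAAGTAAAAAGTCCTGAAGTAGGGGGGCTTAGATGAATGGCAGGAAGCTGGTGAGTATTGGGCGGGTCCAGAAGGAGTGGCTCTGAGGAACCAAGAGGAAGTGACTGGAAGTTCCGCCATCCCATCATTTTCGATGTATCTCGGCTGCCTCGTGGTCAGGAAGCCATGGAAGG
The window of 4930467E23Rik is identical in 300 of 300 bases to those of Gm15319 and Gm21119, which lie in the same stretch of chromosome 8. The windows of Rex2 and Zfp600 agree in 296 of 300 bases without gaps. The next sequence is the window of the long non-coding RNA gene Hk1os at chr10:62362085-62362384 on the plus strand. Capitals mark the 72 bases under a control only peak, which ends 179 bp before the start used for this window. The peak also overlaps the annotated Hk1os gene and lies inside the protein-coding gene Hk1, to which it is assigned.
Hk1os: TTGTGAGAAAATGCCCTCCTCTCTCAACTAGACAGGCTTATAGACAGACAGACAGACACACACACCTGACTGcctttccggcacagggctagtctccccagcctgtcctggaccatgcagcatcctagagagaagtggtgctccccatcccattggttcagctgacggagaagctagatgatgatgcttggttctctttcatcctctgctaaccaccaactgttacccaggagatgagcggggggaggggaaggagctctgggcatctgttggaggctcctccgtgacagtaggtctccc
That peak, of 302 bp, was the only 1 to touch a window of this kind among the 735 peaks on chromosomes for which windows were used. Windows were given for 27025 of 32851 genes, so peaks at the starts of other genes are missed.

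The gene deleted in these mice was examined first. Kdm6a, on chromosome X from 18160862 to 18279936, was assigned 0 peaks in either list, and the nearest control and Utx-deleted peaks lay 2347475 and 58318611 bp away. The lists therefore give no check of the deletion at its own locus. Of 33 genes of UTX, COMPASS-like and Polycomb complexes, 0 had a peak in either list. In all, 533 of 21887 protein-coding genes (2.44%) were assigned a control peak and 113 (0.516%) a Utx-deleted peak, with 72 (0.329%) assigned both, where a peak counts for every gene it lies in or else for the nearest gene.

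The common peaks were the same intervals in both lists, mostly with a shorter version after Utx deletion. They made up 13.0% of the control list (10.4 to 16.1) and 33.3% of the Utx-deleted list (27.3 to 39.9). The second share rests on how the clustered Utx-deleted peaks are counted, and was 50% with peaks within 10 kb merged and 74.0% without the clusters. Every common peak had exactly 1 partner. In 68 of 71 pairs the Utx-deleted peak lay wholly inside the control peak, and the control peak was the wider in 70 of 71. The median width ratio, control over Utx-deleted, was 1.13 (1.07 to 1.27), and 31 pairs differed by 30 bp or less in width. The centres lay a median of 5.50 bp apart (3 to 17), with 47 of 71 pairs within 20 bp and the widest offset at 100 bp.

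The split into classes did not turn on the 1 bp rule. The smallest overlap was 198 bp, at the pair between genes nearest to Intu on chromosome 3, where the control peak was 356 bp and the Utx-deleted peak 202 bp wide. The nearest control peak that missed the rule lay 7252 bp from a Utx-deleted peak. It was inside Ncoa1, a coactivator of nuclear receptors that include the retinoid receptors, on chromosome 12 from 4425198 to 4425459. The next misses were 33726 bp, at a peak assigned to Alox5ap, and 82314 bp, again at Ncoa1. In the other direction the nearest Utx-deleted only peak, inside the centromere protein gene Cenpo, lay 197632 bp from any control peak. A peak was either present at the same place in both lists or had no counterpart within 5 kb.

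**Figure D1:**
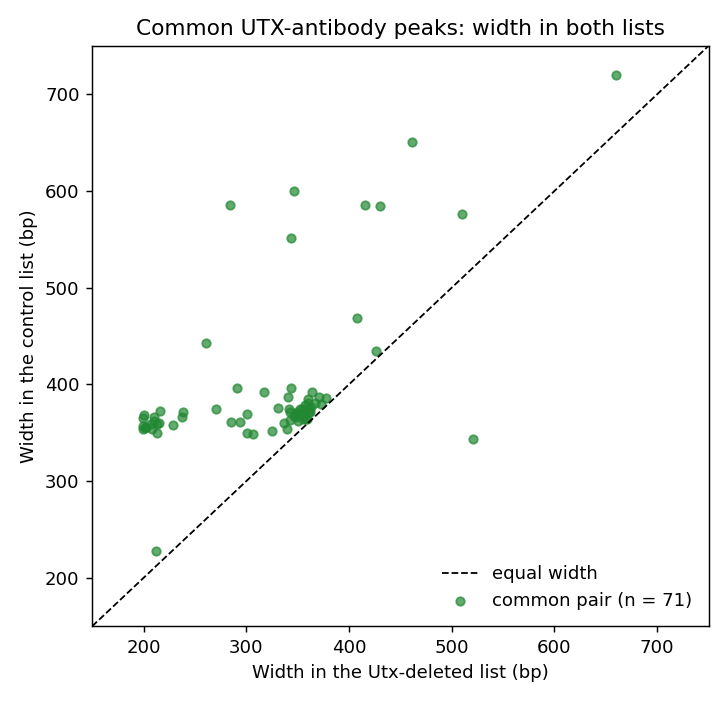
Width in the control list (vertical axis, bp) against width in the Utx-deleted list (horizontal axis, bp) for the 71 common pairs, 1 point a pair, with a dashed line of equal width. All pairs but 1 lie above the line, and the point below it is the peak in Vps45, 344 bp wide in the control list and 521 bp in the Utx-deleted list.

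The widest common pairs lay at genes of different roles, and several of them lay at RNA genes that do not code for protein. The widest pair was 720 bp in the control list and 660 bp in the Utx-deleted list (chromosome 17, control 4626017 to 4626736). It is assigned to the chromatin remodelling gene Arid1b, 367561 bp away, but lies inside the long non-coding RNA gene Gm34259. A pair at Malt1, a protease of NF-kB signalling, was 651 and 461 bp wide and lay 2974 bp outside the gene. Inside Ncoa1 the pair was 600 and 346 bp wide (chromosome 12, control 4417573 to 4418172), and the calcium-activated channel gene Ano2 held a pair of 576 and 510 bp. A pair in Kcnq1, a potassium channel gene, was 551 and 344 bp wide. A pair inside the calcium-dependent kinase gene Camk2g was 443 and 261 bp wide. Pairs assigned to Bcl11a and to 1500009L16Rik lay 926374 bp and 191568 bp from those genes.

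A pair of genes for the RNA of the signal recognition particle, Rn7s1 and Rn7s2, lay under common peaks. They are 299 bp long each and lie on chromosome 12, Rn7s1 from 69159295 to 69159593 and Rn7s2 from 69361183 to 69361481. Both control peaks were 586 bp wide and covered 100% of the gene. The Utx-deleted peaks were 416 bp wide over Rn7s1 and 284 bp over Rn7s2, covering 97.7% and 95% of them. By protein-coding genes alone these peaks are assigned to the ribosomal protein gene Rps29, whose end the peak at Rn7s1 also overlaps, and to Nemf, which acts in ribosome quality control and lies 3828 bp from the peak. The annotation holds 3 genes of this small cytoplasmic RNA type among 49997 genes, and 2 of the 3 had a common peak. So few genes give no usable share. Of the 71 common peaks, 0 overlapped a gene of the snoRNA, miRNA, snRNA or tRNA types. Of the 476 control only peaks 1 did, over a snoRNA gene, so the 0 is near that background and makes no contrast. Mammalian genomes hold many near-identical copies of the signal recognition particle RNA, so the placement of reads at Rn7s1 and Rn7s2 is uncertain.

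Common peaks were scattered singly over the genome. They lay on 20 chromosomes, with at most 7 on 1 of them (chromosome 6), and within the Utx-deleted list the next peak lay a median of 12280724 bp away. Of the 71, 0 belonged to a cluster of the Utx-deleted list, with an upper Wilson limit of 5.13%. By location 32 of 71 lay inside a protein-coding gene (45.1%, 34.0 to 56.6), 38 between genes and 1 at a gene end. For the control only peaks 222 of 476 lay inside a gene (46.6%, 42.2 to 51.1), and the intervals overlap widely. A long non-coding RNA gene lay under 10 of 71 common peaks (14.1%, 7.83 to 24.0) and under 41 of 476 control only peaks (8.61%, 6.41 to 11.5). The 71 common pairs were assigned to 71 protein-coding genes (0.324% of all). Among the genes with a peak inside them were Dpp9, a dipeptidyl peptidase gene with a pair of 385 and 360 bp, Myo7a, an unconventional myosin gene with a pair of 387 and 341 bp, and Vwf, which encodes von Willebrand factor and had a pair of 370 and 357 bp.

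**Figure D2:**
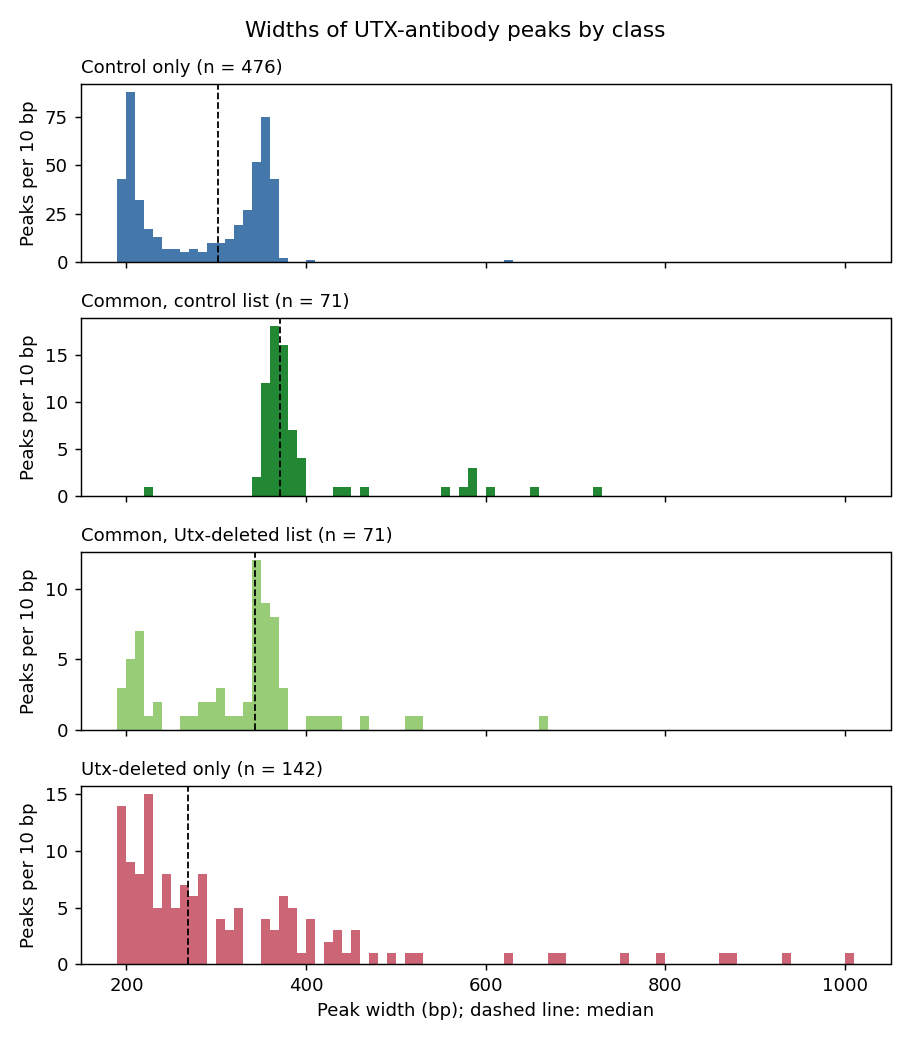
Number of peaks (vertical axis, per 10 bp) by width (horizontal axis, bp) in 4 panels, for control only peaks, the control and the Utx-deleted version of common peaks, and Utx-deleted only peaks, with the median of each as a dashed line. Control only peaks fall into a narrow and a wider mode, common peaks in the control list sit in the wider mode and above, and Utx-deleted only peaks reach 1000 bp.

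Widths separated the classes within the control list. Control widths fell into a pair of modes, with 194 of 547 peaks under 240 bp and 231 from 340 to 399 bp. The lower mode starts at 199 bp, the smallest width in either list, which 43 control peaks and 17 Utx-deleted peaks had. Common peaks were nearly absent from the lower mode. In the control list 0 of 131 peaks of 199 to 209 bp were common, as were 1 of 63 from 210 to 239 bp, 0 of 41 from 240 to 299 bp and 0 of 68 from 300 to 339 bp. The share then rose with width, to 14 of 141 (9.93%) from 340 to 359 bp, 34 of 79 (43.0%) from 360 to 379 bp and 11 of 11 from 380 to 399 bp, and stood at 3 of 4 from 400 to 499 bp and 8 of 9 above. The median was 371 bp for common peaks (366 to 375) and 301.5 bp for control only peaks (275 to 322). A choice by overlap favours wide peaks. With centres within 100 bp as the rule instead, the medians were the same, 371 bp for 71 common and 301.5 bp for 476 control only peaks. This was so by construction, since no common pair had a larger offset and no other peaks lay within 5 kb. The second rule therefore cannot show whether the first one favoured wide peaks here. Other ways in which width may bear on being common were not tested.

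In the Utx-deleted list the common share was highest at 340 to 359 bp, with 21 of 25 peaks, where the control list had 14 of 141. At 360 to 379 bp it was 11 of 20. The Utx-deleted list also differed from the control list at both extremes. Of its 31 peaks of 199 to 209 bp 8 were common, of its 6 from 380 to 399 bp 0 were, and of its 14 peaks of 500 bp or more 11 were Utx-deleted only, unlike the control peaks of that width. The median was 343 bp for the Utx-deleted version of common peaks (307 to 352) and 268.5 bp for Utx-deleted only peaks (247 to 286). The Utx-deleted version of common peaks was itself split, with 18 of 71 under 240 bp and 32 from 340 to 399 bp. The widest peak of either list, of 1000 bp, was a Utx-deleted only peak on chromosome 1 from 133595029 to 133596028, 7843 bp outside the spliceosome gene Snrpe.

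Control only peaks were the most numerous class, mostly isolated and spread over many genes. They were assigned to 465 protein-coding genes (2.12% of all). The widest, of 621 bp, lay 142929 bp from 1700066M21Rik on chromosome 1, and the next, of 403 bp, lay inside the long non-coding RNA gene Gm32624, 533026 bp from the methyltransferase gene N6amt1. All others were 375 bp or narrower. They included a 375 bp peak in Fut8, which adds core fucose to glycoproteins, and 369 bp peaks in Pdia5, a protein disulphide isomerase gene, and in Izumo1, which encodes a sperm protein that binds the egg. Gene ends were no more than 1 kb away for 16 of 476 (3.36%, 2.08 to 5.39), a share of 1.68% at 500 bp, 11.8% at 3 kb and 7.35% with all annotated genes. Where the strand was known, 6 of these were at the 5′ and 8 at the 3′ end. Among peaks on chromosomes with start windows, a start lay within 1 kb of 13 of 464 control only peaks (2.80%) and of 0 of 67 common peaks. Starts of genes without a window are missed, so both counts are lower bounds.

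**Figure D3:**
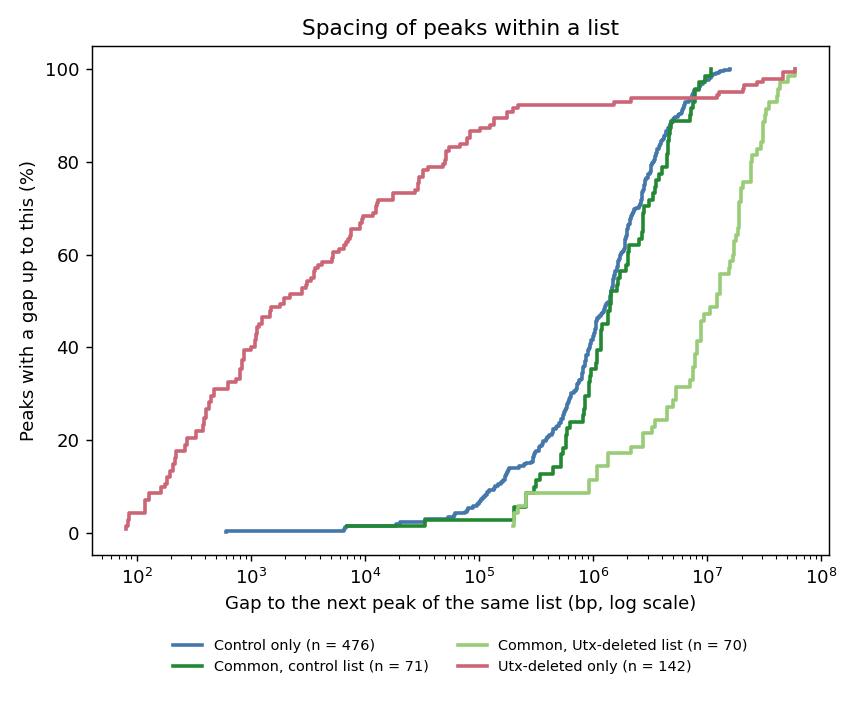
Cumulative share of peaks (vertical axis, %) by the gap to the next peak of the same list (horizontal axis, bp, log scale), 1 line a class. Of the Utx-deleted only peaks 68.3% have a neighbour within 10 kb, whereas the lines of the control list rise mostly between 100 kb and several Mb.

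Spacing set the Utx-deleted only peaks apart from both other classes. The gap to the next peak of the same list had a median of 1937 bp for Utx-deleted only peaks (1099 to 5103) and 1397785.5 bp for control only peaks (1063985 to 1508042). A neighbour within 10 kb was found for 97 of 142 Utx-deleted only peaks (68.3%, 60.3 to 75.4), for 7 of 476 control only peaks (1.47%, 0.714 to 3.00) and for 0 of 71 common peaks in the Utx-deleted list. A cluster was defined as 3 or more peaks of a list joined by gaps of at most 100 kb. The control list held 1 cluster, the 3 peaks assigned to Ncoa1, 1 of them common. The Utx-deleted list held 13, with 117 of the 142 Utx-deleted only peaks (82.4%, 75.3 to 87.8). When only peaks wider than the median width were kept, this share was 42.6% (29.5 to 56.7). None of the 13 spans contained a control peak. The longest span was 526 kb, and the median gap to the next peak in the control list was 1411124 bp. Spans of this size without a control peak are therefore near the background.

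**Figure D4:**
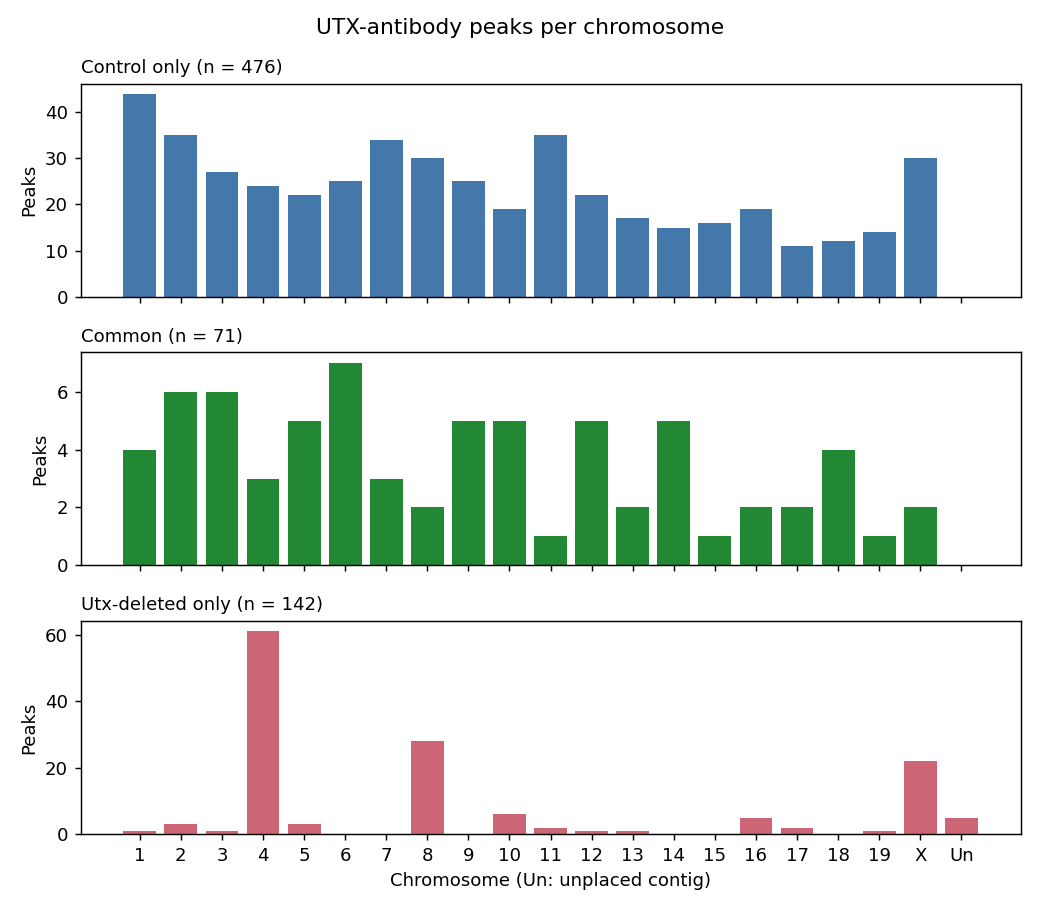
Number of peaks (vertical axis) on each chromosome (horizontal axis, with the unplaced contig last) for the 3 classes. Utx-deleted only peaks pile up on chromosomes 4, 8 and X with 61, 28 and 22 peaks, while the other classes are spread over all chromosomes.

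The clusters lay on a few chromosomes and often among zinc finger genes, and 23 protein-coding genes (0.105% of all) were assigned a clustered peak. Chromosomes 4, 8 and X held 111 of the 142 Utx-deleted only peaks. On chromosome 4 there were 5 clusters with 54 peaks, the largest of 28 peaks over 526 kb from 147252039 to 147778170. Utx-deleted only peaks were assigned to 14 Zfp genes, 13 of them on chromosome 4, out of 400 genes whose symbol starts with Zfp. That is 3.50%, against 0.196% of all protein-coding genes with such a peak, and the control only class had 8 of the 400 (2%) against 2.12% of all. Zfp982 was assigned 9 peaks of up to 753 bp. Gm42346 was assigned 7, Zfp978 and Zfp993 6 each, and Zfp979 5. A 939 bp peak lay 40050 bp from Zfp987, and Rex2 had 3 peaks inside it.

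The remaining clusters lay at other gene families or away from genes. On chromosome 8, 23 peaks lay in 3 clusters between 19691905 and 20636954. Gm15319 was assigned 11 of them and 4930467E23Rik 5, with the widest, of 670 bp, inside Gm21119, whose start window is the one identical to that of 4930467E23Rik. A further 4 lay near Zfp868. On chromosome X, 20 peaks stood within 87.0 kb (126690996 to 126778032), all outside genes, at 34430 bp or more from 4932411N23Rik. Smaller clusters lay on chromosome 10 (6 peaks within 7.08 kb, covering 32.4% of it), chromosome 16 (5 peaks) and an unplaced contig (5 peaks within 12.2 kb). Chromosome 16 had its nearest gene, Olfr161, 253942 bp away.

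**Figure D5:**
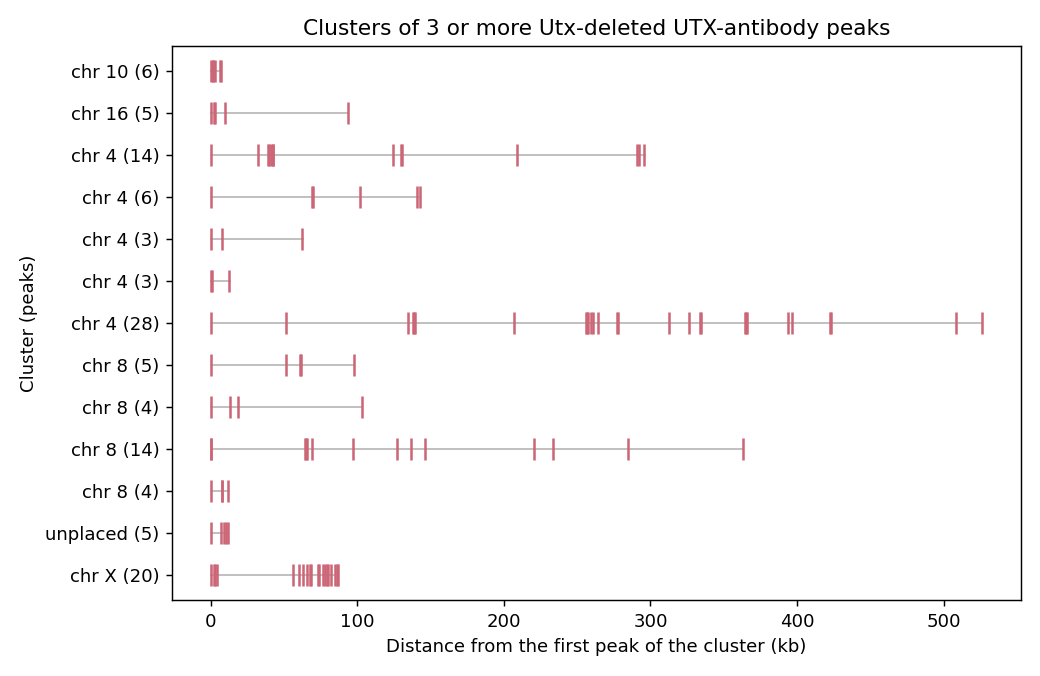
Position of each peak (horizontal axis, kb from the first peak of the cluster) in the 13 clusters of the Utx-deleted list (vertical axis, with the number of peaks), 1 tick a peak. Spans run from 7.08 kb on chromosome 10 to 526 kb on chromosome 4, and the 20 peaks on chromosome X fall into groups of 4 and 16.

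Genes near Utx-deleted only peaks shared sequence with other genes more often than genes near the other classes. A start window was given for 17492 protein-coding genes, and 2350 of them (13.4%) had at least 1 stretch of 31 bases in common with the window of a gene elsewhere. For genes assigned a Utx-deleted only peak this was 19 of 37 (51.4%, 35.9 to 66.6), and for those of the clusters 14 of 20 (70.0%, 48.1 to 85.5). For genes assigned a control only peak it was 19 of 376 (5.05%, 3.26 to 7.76), and for those of common peaks 3 of 54 (5.56%, 1.91 to 15.1). In 4930467E23Rik, Gm15319 and Gm21119 100% of the stretches were shared, in Rex2 97.8%, in Zfp600 94.4% and in Zfp534 64.8%. Other genes of the clusters shared less. Zfp982, with 9 peaks, shared 39.3%, and 4932411N23Rik, with 20 peaks, shared 0.741%. In 9230019H11Rik, 9530057J20Rik, Gm40469, Olfr161, Zfp868 and Zfp993 the share was 0%. The genes with high shares are often neighbours and copies of one another, so they are not independent. How uniquely reads were placed there is not given in the sources used here, and its part in the peaks was not tested.

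Within genes the clustered peaks lay toward the 3′ end. For 37 clustered peaks in 14 genes of known strand, the median position was 84.9% of the gene from its 5′ end (78.7 to 92.8), and 28 of 37 lay in the last 25% of the gene (75.7%, 59.9 to 86.6). Of 186 control only peaks in genes of known strand 44 lay there (23.7%, 18.1 to 30.3), and of 24 common peaks 6 did. In Zfp982 the 6 peaks ran from 21.6% to 95.1% of the gene with a median of 90.3%, and the medians of the 14 genes ran from 50.5% in Zfp600 and 56.9% in Zfp985 to 97.9% in Zfp534 and 98.3% in 4930467E23Rik. Of the 14 Utx-deleted only peaks outside clusters in genes of known strand, 2 lay in the last 25% (14.3%, 4.01 to 39.9). Of the Utx-deleted only peaks 17 of 137 on placed chromosomes lay within 1 kb of a gene end (12.4%, 7.89 to 19), a share of 22.6% at 3 kb and 19% with all annotated genes. Where strand was known, 12 of these were at the 3′ and 1 at the 5′ end. Peaks of 1 gene share its sequence and its copies, so these counts are not of independent sites.

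Pseudogenes, inactive gene copies, also lay under Utx-deleted only peaks. Pseudogenes were overlapped by 26 of 137 of these peaks (19%, 13.3 to 26.4), by 3 of 476 control only peaks (0.630%, 0.215 to 1.84) and by 0 of 71 common peaks. Of the 26 peaks 21 lay in clusters, so these counts are not of independent sites. Many of the pseudogenes are likewise neighbours. By the annotation, those under Utx-deleted only peaks included Vmn2r-ps17 and Vmn2r-ps16 on chromosome 4, pseudogenes of vomeronasal receptors, and Gm20778 and 2610005L07Rik on chromosome 8.

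Outside the clusters 25 Utx-deleted only peaks remained, on 12 chromosomes and at 22 protein-coding genes (0.101% of all), and they included the widest one. Chromosome 4 held 7 of the 25 (28%). Some of these were assigned to Zfp980, Zfp981, Zfp992 and Zfp993, which lie in the same stretch of chromosome 4 as the clusters. This class is thus not wholly apart from the clustered zinc finger genes. Dock2, a guanine nucleotide exchange factor gene of leukocytes, held peaks of 877 and 793 bp on chromosome 11 (34544224 to 34545100 and 34681632 to 34682424). Cldn34d, a claudin gene on chromosome X, held one of 687 bp, and a pair of peaks of 429 and 379 bp lay near the ends of Gm32584, inside the longer gene D5Ertd579e. Peaks of 402, 380 and 354 bp were assigned to the ephrin receptor gene Epha7, the zinc transporter gene Slc30a4 and Frmd4a. The narrower ones included other copied genes. Vmn2r114 and Vmn2r117, vomeronasal receptor genes, had peaks of 225 and 233 bp, and the cytochrome gene Cyp2c69 had one of 238 bp. In 4 of 19 genes of these peaks (21.1%) most of the start window's stretches were shared (Vmn2r114, Cyp2c69, Speer4d and Vmn2r117). At least as many shared as unshared stretches were found in 1088 of 17492 protein-coding genes with a window (6.22%). For genes assigned a control only peak this was 4 of 376 (1.06%), and for those of common peaks 0 of 54. Vmn2r114 and Vmn2r117 shared stretches with each other, so these 4 genes are not all independent.

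Few genes carried peaks of more than 1 class. Ncoa1 had 1 common and 2 control only peaks, and Alox5ap, which encodes the activating protein of 5-lipoxygenase, and Bcl11a, a transcription factor gene, each had 1 common and 1 control only peak. Cldn34c1 had a common and a Utx-deleted only peak. Epha7 was the single gene with a control only and a Utx-deleted only peak and no common one, 240238 and 635879 bp from the gene. Genes with 3 or more peaks were 1 in the control list and 19 in the Utx-deleted list.

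The gene lists of the epidermis and of other skin cells were short beside the shares of all genes with a peak, 2.44% in the control and 0.516% in the Utx-deleted list, so a count of 0 in a list is near that background. Of 30 basal keratinocyte genes, 36 cornified envelope genes, 29 epidermal differentiation transcription factors, 20 AP-1 transcription factors and 20 hair follicle genes, 0 had a peak in either list. The labelled tissue therefore cannot be checked from peaks at its defining genes, Krt5 and Krt14 among them. Of 35 retinoid genes 2 had a control peak (5.71%), Ncoa1 and Rdh10, a retinol dehydrogenase gene whose peak of 206 bp lay 22353 bp from the gene. Of 13 melanocyte genes 2 had a control only peak (15.4%), Tyrp1 (355 bp, 1867 bp from the gene) and Oca2 (344 bp, inside it), and 0 had a Utx-deleted peak. Of 10 endothelial genes 1 had a peak (10%), Vwf, common to both lists. The 18 immune and 15 fibroblast genes had 0 in either list.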

How the data were processed

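The 4 peak lists that the authors deposited give positions alone, as chromosome, start and end. Per the file headers, macs2 called narrow peaks after the samples of each group had been merged. The submitters' processing notes also name FastQC, Bowtie2, bedtools and deepTools, without a version or a filter. The lists hold no height, fold or q, so a stricter threshold and leaving out a library could not be tried. Those notes name mm10/GRCm38 and mm39/GRCm39. GRCm38 was taken from positions: control H3K27ac peaks fell no more than 1 kb from the end of a gene of that build in 36.1% of cases, against 10.1% and 9.68% when moved by 10 kb either way.

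Starts were made 1-based. Peaks were classed by edge overlap of 1 bp or more, assigned to the protein-coding gene they lie in or the nearest one (21887 RefSeq genes, GRCm38.p6), and located within 1 kb of either gene end, inside a gene or between genes. Exons were not in the annotation used, strand came from the table of start windows, and 5 peaks on an unplaced contig were left out of gene counts. Clusters joined 3 or more peaks of a list with gaps of at most 100 kb. Values are descriptive, with no test over peaks. The overlap and cluster rules were tested on simulated peaks with planted overlaps and a planted cluster. The other procedures were not tested in this way. Members, gene lists and the named-gene rule (Kdm6a, the 10 widest peaks of each class, genes with 3 or more peaks in 1 list or with peaks of more than 1 class, members of gene lists, the smallest gaps and overlaps) were chosen with earlier results of these data known. Other genes were named after their values were seen, as were the start windows, the Zfp and pseudogene counts and the positions within genes. Computation used scipy 1.17.1, pandas 2.3.3 and numpy 2.4.6 under Python 3.11.15, and figures matplotlib 3.10.9.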

Additional observations from a re-analysis of the deposited data

How the results depend on the processing

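Of 106 alternative values over 19 results, 73 stayed within the interval of the main value or, for counts, within 1.5 times of it, and Utx-deleted only peaks had the highest share in clusters in each clustering setting. Keeping only peaks wider than the median width lowers counts and raises medians by construction. It left 43 common peaks and 245, 43 and 24 genes in the 3 classes. The medians were 353 bp (control only), 402 bp (Utx-deleted only) and 357 bp (Utx-deleted version of common peaks). Common peaks were then 47.8% of the Utx-deleted list, and 2.04% of control only peaks lay at gene ends. Clusters held 0%, 0% and 42.6% of control only, common and Utx-deleted only peaks, a filter that also removes neighbours. Merging peaks within 10 kb gave 50% and leaving out the Utx-deleted clusters 74.0% of the Utx-deleted list as common, and in the second case 48.0% of Utx-deleted only peaks lay inside genes. Gene ends within 500 bp held 1.68% of control only peaks, and within 3 kb 11.8% of control only and 22.6% of Utx-deleted only peaks, with 29.9% of the latter inside genes. With all annotated genes, a setting chosen after seeing the data, 7.35% and 19% lay at gene ends, and 51.3%, 57.7% and 47.4% of control only, common and Utx-deleted only peaks lay inside. Clusters joined at 10 kb held 0%, 0% and 54.2% of the classes in that order, and at 1 Mb 13.9% and 9.86% of control only and common peaks. With 5 or more peaks a cluster the shares were 0%, 0% and 72.5%. Genes within 10 kb of common peaks were 44. Overlap of 50% of both peaks gave 70 common peaks. Gaps of up to 1 kb and centres within 100 bp gave 71 by construction, since no pair has a larger offset and no other peaks lie within 5 kb. Not run were a stricter q and the omission of single libraries. No paired analysis was possible because a merged list carries no library numbers. Read depth is unknown and limits every comparison of peak numbers.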

Other observations

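The H3K27ac lists of the same genotypes, which take no part in the comparison above, touched the classes unevenly. The control H3K27ac list merged 2 libraries and the Utx-deleted one 3. Shares taken from these different lists have no common baseline. Utx-deleted only peaks and the Utx-deleted version of common peaks were set against the same list. In control epidermis 2 of 476 control only UTX peaks (0.420%, 0.115 to 1.52), assigned to Acsl5, an acyl-CoA synthetase gene, and N6amt1, and 2 of 71 common peaks (2.82%, 0.776 to 9.70), at Arid1b and in Dpp9, overlapped a control H3K27ac peak. In Utx-deleted epidermis 32 of 142 Utx-deleted only peaks (22.5%, 16.4 to 30.1) overlapped a Utx-deleted H3K27ac peak, 23 of 117 in the clusters and 9 of 25 outside them, among these the peaks of Dock2, Cldn34d, Epha7 and Snrpe. Of the common peaks 2 of 71 did, at Arid1b and in Vps45, the single pair that was wider after deletion.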
